A study of Mus musculus with 6 samples.

Results

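Oct1 conditional knockout (cKO) mouse cells taken 3 days into differentiation toward mesoderm were set against undifferentiated embryonic stem cells (ESC) of the same genotype. The cells were chosen by 2 limits, a minimum of 1000 detected genes and a maximum of 10% of UMIs (unique molecular identifiers, each marking 1 captured RNA molecule) in mitochondrial genes. These limits left 1026 cells of the day 3 library and 530 cells of the ESC library, 1556 of the 7096 cells that pass in the 6 libraries of the series. Removing called doublets left 1014 and 527 cells. The series profiled 2 genotypes, Oct1_cKO and Parental, at 3 stages by droplet sequencing of transcript 5′ ends, with 1 library per genotype and stage.

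The day 3 cells carried the label of cells differentiated toward the mesodermal lineage, and the ESC library is labelled ESC with no differentiation day. Before differentiation the cultures were placed on 0.1% gelatin, and the first medium, N2B27 with the growth factor Bmp4, was used for 2 days. The second medium, based on DMEM, held Rspo3, which raises Wnt signalling, together with the BMP receptor inhibitor LDN-193189, so the day 3 cells had spent 1 day in it. Cells of each library were detached with trypsin. The labels name neither the driver of the deletion, nor the strain or clone of the cells, nor the medium of the ESC. The day 3 and ESC libraries also carry different title prefixes whose meaning is not given, so stage, medium and title prefix cannot be told apart. With 1 library on each side there is no replicate, and no p-value was computed.

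Oct1, encoded by Pou2f1, is a POU domain transcription factor that binds the octamer ATGCAAAT, the sequence also read by its relative Oct4 (Pou5f1), which sustains pluripotency. Mouse ESC in the naive state express factors such as Klf4, Tfcp2l1 and Esrrb under signals that include LIF and BMP. On leaving that state they switch these factors off and pass through a primed state like the epiblast of the early embryo, marked by Pou3f1, Otx2 and Fgf5, from which the primitive streak and the caudal progenitors of spinal cord and trunk mesoderm form.

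Depth was similar on both sides. Kept cells held 82958107 UMIs at day 3 and 38635948 in ESC, with medians of 78837 and 70735 UMIs per cell, 7039 and 6954 genes per cell, and 4.16% and 6.11% mitochondrial UMIs. The 2 libraries shared 1 kept cell barcode. A level is the UMI sum of a gene over a library's kept cells per 1000000 UMIs (counts per 1000000, CPM), and intervals are exact 95% intervals that cover counting error only.

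Pou2f1, on chromosome 1, stood at 12.6 CPM (11.9 to 13.4) in cKO day 3 cells against 21.6 CPM (20.2 to 23.1) in cKO ESC, so the log2 ratio was -0.78 (-0.91 to -0.64). It was at 28.4 CPM in parental day 3 cells and 30.1 CPM in parental ESC. The cKO libraries thus still held Pou2f1 transcripts at both stages, below the parental level at each. The deleted part of the gene is not given in the labels, so tags from the 5′ end do not read the deletion itself.

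A gene was compared when at least 1 of the libraries reached 5 CPM, and was called higher or lower when the levels differed at least 2-fold. Of 9458 genes compared, 826 were higher at day 3 (8.73%) and 1242 were lower (13.1%), and the median log2 ratio over all of them was -0.02. The counts depend on the minimum: at 20 CPM they were 387 and 633. A gene can reach the minimum through 1 library alone, so a low gene that is compared tends to be one that differs. By chromosome, the median log2 ratio ran between -0.11 on chromosome 3 and 0.09 on chromosome 12 among autosomes, and it was 0.08 on chromosome X. On X, 54 of 310 genes (17.4%) were higher, against 4.93% to 13.1% on the autosomes.

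Egr1 and Pim2 led the genes with the highest ratios at day 3. Egr1, an immediate early transcription factor induced by ERK signalling, had 67.4 CPM in day 3 cells and 0.699 CPM in ESC, a log2 ratio of 6.59 (6.05 to 7.20). Pim2, a serine/threonine kinase that promotes cell survival, had 145 CPM at day 3 and 2.72 CPM in ESC, a ratio of 53.2-fold. Both were widespread: after each cell was thinned to 10000 UMIs, Egr1 was seen in 44.8% of day 3 cells and 1.05% of ESC, and Pim2 in 64.0% of day 3 cells and 1.68% of ESC. Without thinning the shares were 83.7% and 3.80% for Egr1, and 90.6% and 15.2% for Pim2.

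Ptn, the growth factor pleiotrophin, had 36.8 CPM at day 3 and 0.285 CPM in ESC. Enpp2, the enzyme autotaxin that makes lysophosphatidic acid, had 29.8 CPM at day 3 and 0.466 CPM in ESC. The Wnt ligand Wnt8a had 27.7 CPM at day 3 and 0.595 CPM in ESC. At equal depth each of these genes was seen in between 21.0% and 27.2% of day 3 cells and in at most 1.26% of ESC. Cldn6, a tight junction protein, had 53 CPM at day 3 and 2.30 CPM in ESC, and the receptor tyrosine kinase Epha1 had 47.9 CPM at day 3 and 2.54 CPM in ESC. Nes, an intermediate filament of neural progenitors, had 64.8 CPM at day 3 and 3.73 CPM in ESC. Tmem54, the membrane carbonic anhydrase Car4, the secreted protein Cthrc1, the adhesion receptor Adgrb2 and the acyl-CoA thioesterase Acot1 complete the group, with day 3 levels between 21.1 CPM for Adgrb2 and 87.7 CPM for Acot1 and ESC levels of 3.16 CPM or less. Acot1 has close paralogs, so its reads may be split among them. Under stricter cell limits (2000 genes or more, mitochondrial share 5% or less), which left 795 day 3 cells and 86 ESC, the log2 ratio was 5.55 in place of 7.93 for Tmem54, 5.36 in place of 7.79 for Car4, 7.11 in place of 5.54 for Wnt8a and 6.30 in place of 4.95 for Cthrc1. It was 6.01 in place of 7.01 for Ptn, 5.53 in place of 4.80 for Acot1, 5.16 in place of 4.12 for Nes and 4.98 in place of 4.24 for Epha1.

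The 14 genes with the lowest ratios lay between 0.0964 CPM (Saa3) and 21.0 CPM (Mylpf) at day 3. Jam2, a junctional adhesion molecule, had 1.11 CPM at day 3 and 159 CPM in ESC, a log2 ratio of -7.17 (-7.48 to -6.87). The autophagy receptor Calcoco2 had 2.46 CPM at day 3 and 254 CPM in ESC, 103-fold lower. The forkhead factor Foxd1 had 1.02 CPM at day 3 and 137 CPM in ESC. Saa3, an acute phase apolipoprotein, had 0.0964 CPM at day 3, which is 8 UMIs in all, and 56.4 CPM in ESC. Mylpf, a myosin light chain of fast skeletal muscle, had 21.0 CPM at day 3 and 765 CPM in ESC, where 95.2% of cells showed it at equal depth, against 7.96% of day 3 cells. Mymx, a membrane peptide that acts in myoblast fusion, had 1.27 CPM at day 3 and 143 CPM in ESC. Laptm5, Mras, Cobl, Arl14epl and Fam25c lay between 0.362 and 1.3 CPM at day 3 and between 51.4 and 115 CPM in ESC.

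**Figure D1:**
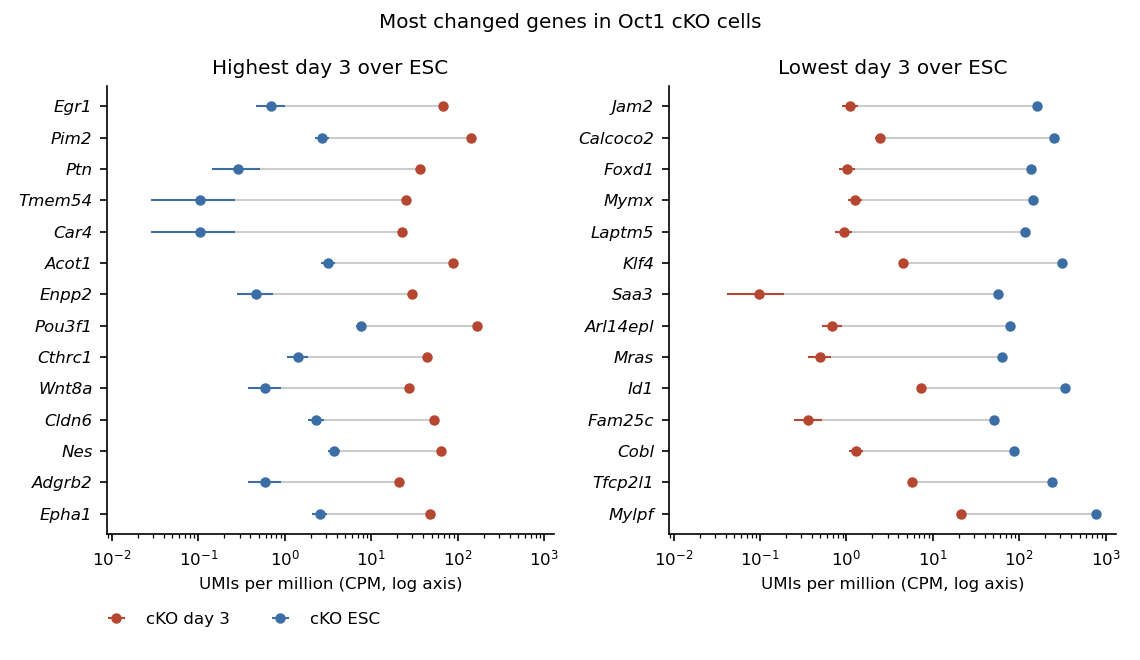
Level of the 14 genes with the highest (left) and the 14 with the lowest (right) day 3 over ESC ratio in Oct1 cKO cells, in CPM on a log axis, with 1 point per library and exact 95% counting intervals as bars. Day 3 points of the left group lie at 21.1 CPM or above, and every ESC point there at 7.58 CPM or below.

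Naive pluripotency genes had the lowest median log2 ratio, -4.04, of the 58 lists with a compared gene. Of 17 listed, 16 were compared, and 13 of them were lower at day 3 and 1 was higher, where 13.1% of all compared genes were lower. Klf4 had 4.47 CPM at day 3 and 313 CPM in ESC, a log2 ratio of -6.13 (-6.28 to -5.98), and Tfcp2l1 had 5.67 CPM at day 3 and 237 CPM in ESC. Nr5a2, a nuclear receptor that activates naive genes, had 0.386 CPM at day 3 and 18.2 CPM in ESC, and Tcl1, a cofactor of the AKT kinase, had 0.338 CPM at day 3 and 17.5 CPM in ESC. Nanog, Klf2, Gbx2, Dppa3, Sox2, Otx2, Foxd3, Cdx1 and Cdx2 were chosen for description after their values were seen. Nanog kept more of its level than Klf4, with 38.5 CPM at day 3 and 168 CPM in ESC. Klf2 had 190 CPM at day 3 and 330 CPM in ESC, and Gbx2 had 26.4 CPM at day 3 and 17.2 CPM in ESC, and neither reached 2-fold. The 1 member that was higher was Dppa3, a maternal and germ cell factor that protects DNA methylation in the zygote, with 26.1 CPM at day 3 and 3.16 CPM in ESC. The 8 naive markers used to check the ESC label all reached 5 CPM in ESC and summed to 285.8 CPM at day 3 and 1796 CPM in ESC.

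Targets of LIF and STAT3 followed the same direction: 11 of 13 compared were lower at day 3 and none was higher, with a median of -2.91. Over all compared genes 13.1% were lower and 8.73% higher. Klf5 had 14.7 CPM at day 3 and 159 CPM in ESC. Klf4, Klf5, Tfcp2l1 and Stat3 stand in both this list and the naive list, and all of them were lower. The lists are therefore not independent.

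Genes of core pluripotency, shared by naive and primed cells, were split, with 4 of 14 higher and 4 lower (over all genes, 8.73% and 13.1%). Dppa5a, an RNA-binding protein abundant in ESC, had 356 CPM at day 3 and 4479 CPM in ESC, and Zfp57, a zinc finger protein that keeps imprints, had 22.8 CPM at day 3 and 254 CPM in ESC. Lin28b, which blocks let-7 microRNA maturation, had 20.1 CPM at day 3 and 5.90 CPM in ESC. Pou5f1 had 490 CPM at day 3 and 791 CPM in ESC, a log2 ratio of -0.69 that is not called, while its partner Sox2 had 73.0 CPM at day 3 and 225 CPM in ESC (-1.62). The pluripotency regulators thus did not move together: Klf4 differed 70.0-fold and Pou5f1 by less than 2-fold.

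Of 16 primed epiblast genes compared, 12 were higher at day 3 and 1 was lower (over all genes, 8.73% and 13.1%), with a median log2 ratio of 2.22. Pou3f1, a class III POU factor, had 170 CPM at day 3 and 7.58 CPM in ESC, a log2 ratio of 4.49 (4.32 to 4.66). Fgf5 had 10.9 CPM at day 3 and 0.311 CPM in ESC, and the carbonic anhydrase Car14 had 8.22 CPM at day 3 and 0.0518 CPM in ESC, the ESC level resting on 2 UMIs, and its log2 ratio of 7.31 was 3.93 under the stricter cell limits. Otx2, a homeobox factor of the anterior epiblast, had 12.8 CPM at day 3 and 1.42 CPM in ESC. The lower member was Foxd3, with 5.12 CPM at day 3 and 11.2 CPM in ESC.

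DNA methylation enzymes were split. The methyltransferases Dnmt3b and Dnmt3a were higher, with 356 and 52.4 CPM at day 3 and 41.2 and 10.4 CPM in ESC. Of the dioxygenases that oxidise methylcytosine 2 were lower, with 2.76 CPM at day 3 and 68.8 CPM in ESC for Tet2, and 45.6 CPM at day 3 and 216 CPM in ESC for Tet1. The third, Tet3, had 5.75 CPM at day 3 and 3.91 CPM in ESC and was not called, and Dnmt3l, a cofactor of the methyltransferases, was lower, with 52.8 CPM at day 3 and 137 CPM in ESC (both chosen after their values were seen). In all, 2 of 9 genes of this list were higher and 3 were lower. None of 14 Polycomb genes compared was higher and 4 were lower, against 8.73% and 13.1% over all genes, among them Jarid2 with 66.1 CPM at day 3 and 188 CPM in ESC.

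The neuromesodermal list, which marks caudal progenitors, had 8 of 12 genes compared, 6 higher and 1 lower, with a median log2 ratio of 3.54 (over all genes, 8.73% were higher). T (Brachyury), the T-box factor of the primitive streak, had 34.4 CPM at day 3 and 2.28 CPM in ESC, a log2 ratio of 3.92 (3.61 to 4.24) that was 5.84 under the stricter cell limits. Nkx1-2 had 36.9 CPM at day 3 and 2.28 CPM in ESC. Cdx4, a caudal homeobox factor, had 9.08 CPM at day 3 and 0.776 CPM in ESC, and its log2 ratio of 3.55 was 4.68 under the stricter limits and 2.69 with equal weight per cell. Its relatives differed: Cdx1 had 10.3 CPM at day 3 and 50.7 CPM in ESC, and Cdx2 had 8.81 CPM at day 3 and 4.43 CPM in ESC. Cdx2 in ESC moved with keratin-high cells, those with at least 500 CPM of Krt7, Krt8 and Krt18 together. Without those cells the Cdx2 log2 ratio was 2.21 in place of 0.99.

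Later mesoderm genes were scarce. Of 12 presomitic genes only 3 reached the minimum, with Dll1 at 5.51 CPM at day 3 and 1.37 CPM in ESC. The fixed presomitic markers Tbx6, Msgn1, Dll1 and Hes7 summed to 6.23 CPM at day 3 and 1.48 CPM in ESC, and 4 endoderm markers summed to 0.976 CPM at day 3 and 2.25 CPM in ESC. Of 15 primitive streak genes 7 were compared, and T, Wnt3 and Fgf8 were higher while Eomes was lower, with 4.67 CPM at day 3 and 12.7 CPM in ESC. Of the 6 fixed streak markers 3 reached 5 CPM at day 3, T, Fgf8 and Sp5, and Sp5 had 34.7 CPM at day 3 and 44.8 CPM in ESC. Mixl1 and Evx1 were under 1 CPM at day 3, and the median log2 ratio of the streak list was -0.37.

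**Figure D2:**
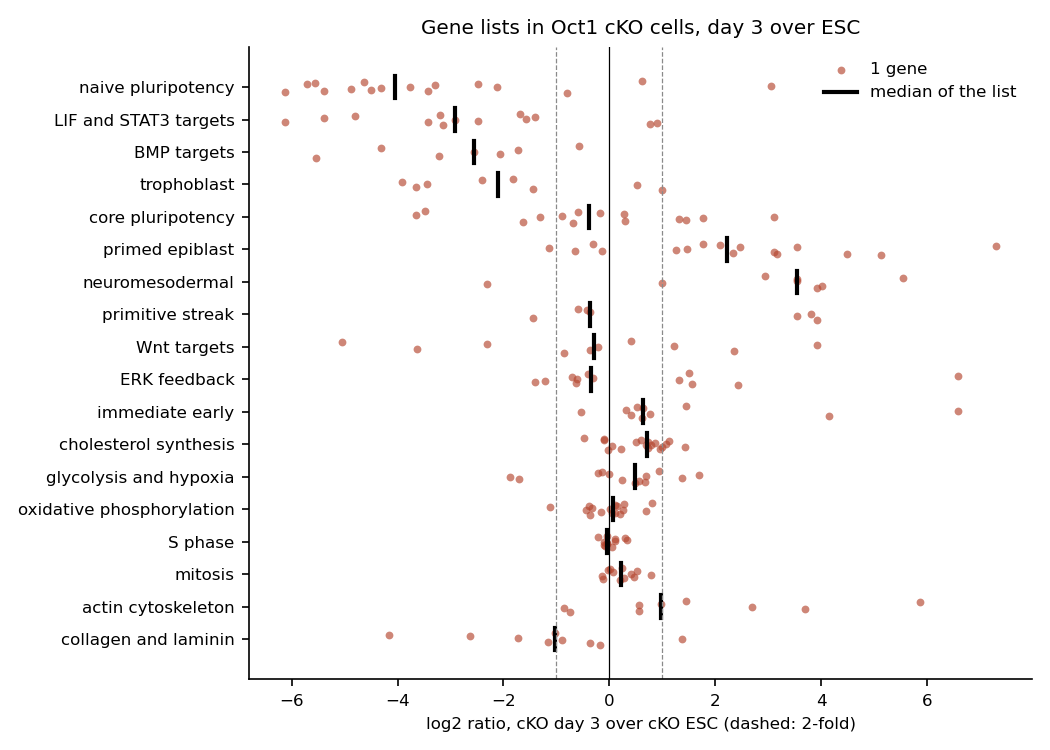
Log2 ratio of day 3 over ESC in Oct1 cKO cells for the compared members of 18 gene lists, with 1 point per gene and a bar at the list's median. The medians run from -4.04 for naive pluripotency genes to 3.54 for neuromesodermal genes, and the S phase list lies at -0.04.

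Genes that respond to BMP were lower at day 3, when the culture had been in the BMP receptor inhibitor for 1 day. Of 12 listed, 7 were compared and 6 were lower (over all genes, 13.1%), with none higher and a median of -2.56. Id1, an inhibitor of basic helix-loop-helix factors and a direct BMP target, had 7.32 CPM at day 3 and 342 CPM in ESC, a log2 ratio of -5.54 (-5.66 to -5.43). Id2 had 13.5 CPM at day 3 and 126 CPM in ESC, and Id4 had 2.11 CPM at day 3 and 12.4 CPM in ESC. Tbx3, a T-box factor that also belongs to the naive list, had 7.82 CPM at day 3 and 156 CPM in ESC. Bmp4 itself had 1.60 CPM at day 3 and 17.1 CPM in ESC. Of 5 Smad genes compared, only the inhibitory Smad7 was called, with 31.1 CPM at day 3 and 103 CPM in ESC, while Smad4 had 59.4 CPM at day 3 and 36.8 CPM in ESC. The stimulus was not varied on its own, and its part in these values was not tested.

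Wnt genes were mixed. The ligands Wnt8a and Wnt3 were higher, and Wnt3 had 6.93 CPM at day 3 and 0.492 CPM in ESC. Among 10 targets compared, 3 were higher and 3 were lower (over all genes, 8.73% and 13.1%). Lef1, a transcription factor that binds beta-catenin, had 59.5 CPM at day 3 and 11.6 CPM in ESC. Notum, an enzyme that inactivates Wnt ligands, had 0.832 CPM at day 3 and 10.4 CPM in ESC. The secreted antagonist Dkk1 had 0.350 CPM at day 3 and 11.6 CPM in ESC, a log2 ratio of -5.06 that was -3.78 without keratin-high cells. Another antagonist, Sfrp2, went the other way, with 16.5 CPM at day 3 and 1.24 CPM in ESC.

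The Nodal antagonists Lefty1 and Lefty2 moved in opposite directions. Lefty1 had 78.2 CPM at day 3 and 11.2 CPM in ESC, while Lefty2 had 7.27 CPM at day 3 and 82.4 CPM in ESC. For each of them, 26 day 3 cells held 50% of the UMIs. Feedback genes of FGF and ERK signalling were mixed, since among 12 genes 5 were higher, including Egr1, and 2 were lower (over all genes, 8.73% and 13.1%). Dusp4 and Dusp6, phosphatases that restrain ERK, had 21.4 and 36.4 CPM at day 3 and 3.99 and 12.3 CPM in ESC. The summed levels of 2 ligands moved in opposite directions. Fgf4, an ESC ligand, had 7.18 CPM at day 3 and 70.3 CPM in ESC. Fgf8 had 18.1 CPM at day 3 and 1.55 CPM in ESC, a log2 ratio of 3.54 that was 5.48 under the stricter limits. Fgf8 was seen in only 7.76% of thinned day 3 cells, and Fgf4 in 5.92%, and 24 day 3 cells held 50% of the Fgf8 UMIs. Crabp2, a binding protein that delivers retinoic acid, had 30.9 CPM at day 3 and 1.76 CPM in ESC.

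None of 12 S phase genes and none of 12 mitosis genes was called, with medians of -0.04 and 0.22. Of 16 oxidative phosphorylation genes 1 was lower, Cox6c with 518 CPM at day 3 and 1124 CPM in ESC. Cholesterol synthesis had 3 of 18 genes higher and none lower, against 8.73% and 13.1% over all genes, and a median of 0.71, with the prenyl synthase Fdps at 350 CPM at day 3 and 130 CPM in ESC. Glucose handling changed in its parts: the transporter Slc2a3 and hexokinase Hk2 had 111 and 60.7 CPM at day 3 and 409 and 199 CPM in ESC, while the transporter Slc2a1 had 282 CPM at day 3 and 109 CPM in ESC. The Slc2a1 ratio of 1.37 was 0.63 under the stricter cell limits.

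Trophoblast genes were mostly lower at day 3, and the share of cells rich in keratins was lower too. Cells with at least 500 CPM of Krt7, Krt8 and Krt18 together made up 4.24% of day 3 cells (43) and 9.68% of ESC (51). Of 8 trophoblast genes compared 6 were lower at day 3 and none was higher, against 13.1% and 8.73% over all genes. Krt7 had 0.820 CPM at day 3 and 8.88 CPM in ESC, a log2 ratio of -3.44 that was -0.02 without the keratin-high cells. Krt7 is among the genes that define those cells, so this shift follows in part from the definition. Plet1, a trophoblast surface protein, had 1.51 CPM at day 3 and 22.6 CPM in ESC, and Gata3 had 0.627 CPM at day 3 and 7.84 CPM in ESC, and without those cells their log2 ratios were -4.11 for Plet1 and -3.53 for Gata3. The imprinted RNA H19 had 2.33 CPM at day 3 and 9.78 CPM in ESC, and its log2 ratio of -2.07 turned to 1.46 without keratin-high cells. For the epithelial list the typical cell and the extreme cell differed in opposite ways: the median was 8 UMIs per thinned day 3 cell and 3 UMIs per ESC, and the 95th percentile was 17 and 31.4 UMIs. Grhl2, an epithelial transcription factor, had 11.1 CPM at day 3 and 1.60 CPM in ESC.

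Of 9 actin cytoskeleton genes compared, 4 were called higher and none lower, against 8.73% and 13.1% over all genes. The list as a whole, to which the abundant Actb and Actg1 contribute most, summed to 5546 CPM at day 3 and 5995 CPM in ESC. Tagln, an actin-binding protein of smooth muscle, had 119 CPM at day 3 and 9.14 CPM in ESC, and Cnn1, a calponin, had 15.1 CPM at day 3 and 0.259 CPM in ESC. Their UMIs were uneven over cells: 31 day 3 cells held 50% of the Tagln UMIs, and 4 ESC did. Giving every cell equal weight lowered the Tagln log2 ratio of 3.70 to 2.35. Matrix genes were lower on balance, with 5 of 9 lower and 1 higher, against 13.1% and 8.73% over all genes. The basement membrane protein Nid1 had 1.965 CPM at day 3 and 35.4 CPM in ESC, and fibronectin, Fn1, had 40.4 CPM at day 3 and 249 CPM in ESC. The fixed fibroblast markers, 7 genes, summed to 11.2 CPM in both libraries.

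The loss of naive and the gain of primed transcripts were seen in most single cells. After thinning to 10000 UMIs, which left out 34 day 3 cells and 50 ESC, naive list UMIs had a median of 3 in 980 day 3 cells and 21 in 477 ESC. The range between the 5th and 95th percentile was 0 to 11 at day 3 and 7 to 36 in ESC. Primed list UMIs had a median of 8 at day 3 and 2 in ESC. Of the day 3 cells, 184 (18.8%, 16.4% to 21.4%) reached the 5th percentile of ESC, 7 naive UMIs, and 142 day 3 cells lay within 1 UMI of that value. The other day 3 cells lay below 95% of ESC, and the share that reached the ESC 5th percentile was smaller at greater depth, 11% at 20000 UMIs. The naive list summed to 369 CPM at day 3, of which Klf2 gave 190, Gbx2 26.4 and Dppa3 26.1 CPM. None of these genes was called lower, so naive UMIs of day 3 cells came largely from members that were not lost.

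Some naive genes that most ESC shared, such as Klf4 and Tfcp2l1, were seen in few day 3 cells. Others stayed widespread: without thinning, Klf2 was seen in 89.55% of day 3 cells and 89.56% of ESC. Zfp42 was seen in 74.56% of day 3 cells and 96.39% of ESC without thinning, and Nanog also in most cells of both libraries. Klf4 was seen in 5.61% of thinned day 3 cells (4.26% to 7.24%) and 86.4% of ESC (83.0% to 89.3%), and in 20.7% and 92.2% without thinning. In cKO day 6 cells, thinned alike and with a median of 30911 UMIs before thinning, Klf4 was seen in 4.95%. Thinning left out 558 of 1649 day 6 cells. Tfcp2l1 was seen in 5.61% of day 3 cells and 86.6% of ESC, and in 5.32% of day 6 cells. These 2 day 3 shares had intervals that include the day 6 share. Other naive genes differed from day 6 in both directions. Tbx3 was seen in 7.14% of day 3 cells, 70.0% of ESC and 1.47% of day 6 cells. For Fgf4 the shares were 5.92% of day 3 cells, 42.6% of ESC and 0.183% of day 6 cells. Below day 6 lay Klf5, in 12.9% of day 3 and 47.3% of day 6 cells, and Tet2, in 1.94% and 3.94%. Nr5a2 and Tcl1 were rare at both days, in 0.306% and 0.204% of day 3 cells and 0.183% and 0.0917% of day 6 cells. Day 3 cells with a Klf4 UMI averaged 5.84 naive UMIs, that one included, and day 3 cells without one averaged 3.92. Pou3f1 was seen in 58.2% of day 3 cells (55.0% to 61.3%) and 6.5% of ESC, and in 87.6% and 30.6% without thinning.

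T marked a minority of day 3 cells. It was seen in 17.8% of them (174 cells, 15.4% to 20.3%) and in 1.26% of ESC (6 cells), and in 44.0% and 13.5% without thinning. Its UMIs were concentrated, with 49 day 3 cells holding 50% of them, whereas 149 cells held 50% of the Pou3f1 UMIs. Day 3 cells with a T UMI averaged 3.34 naive UMIs and 9.03 primed UMIs, and day 3 cells without one averaged 4.18 and 8.42. Across the 980 thinned day 3 cells the Spearman correlation of naive with primed UMIs was -0.13, a description of cells that share a library.

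**Figure D3:**
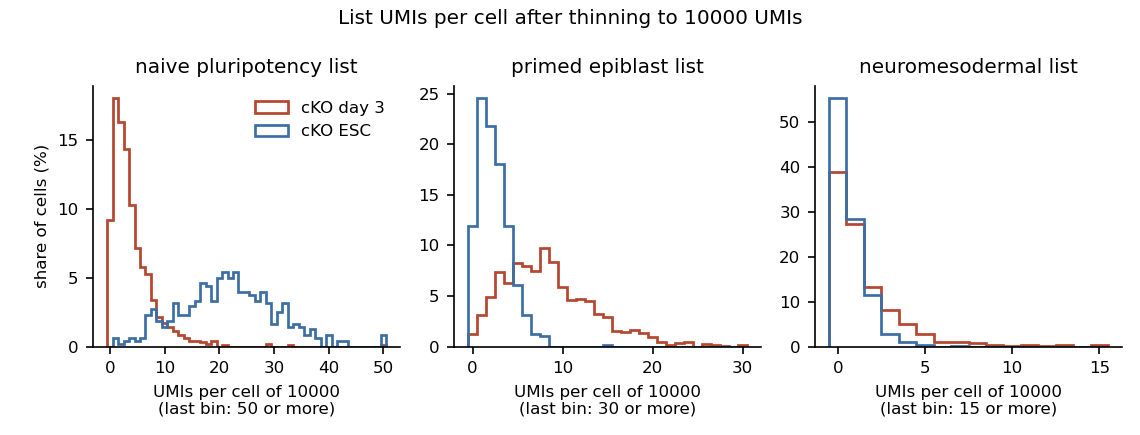
Distribution of UMIs per cell of the naive, primed and neuromesodermal lists after thinning each cell to 10000 UMIs, as the share of 980 cKO day 3 cells and 477 cKO ESC. The naive list peaks near its day 3 median of 3 UMIs and its ESC median of 21, and the primed list is reversed, with medians of 8 at day 3 and 2 in ESC.

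The same step was measured in parental cells, with separate libraries and no shared control. There, of 9555 genes compared, 720 were higher at day 3 (7.54%) and 1024 were lower (10.7%). Among 9210 genes compared in both genotypes, 537 were higher in both, 67.0% of those higher in cKO and 81.5% of those higher in parental cells. Another 774 were lower in both, 69.1% of those lower in cKO and 87.1% of those lower in parental cells. Across these genes, which are not independent replicates, the Spearman correlation of the log2 ratios was 0.89, and the median absolute log2 ratio was 0.47 in cKO and 0.40 in parental cells. Naive genes had a median of -4.04 in cKO and -3.15 in parental cells, primed genes 2.22 and 2.11, and neuromesodermal genes 3.54 and 3.37. The neuromesodermal medians rest on unlike sets, 8 compared genes in cKO (6 higher, 1 lower) and 10 in parental cells (8 higher, 0 lower). That list summed to 160 CPM in cKO day 3 cells and 66.0 CPM in cKO ESC. In parental cells it summed to 257 CPM at day 3 and 67.8 CPM in ESC.

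Genes whose cKO step exceeded the parental step by at least 1 log2 unit numbered 302 of 9803 (3.08%), and 226 (2.31%) had a cKO step that was more negative by as much. The count of 302 rested on fibroblast-gene cells, cells that express at least 3 fibroblast genes, and fell to 88 without them. Such cells made up 1.87% of cKO day 3 cells and 0.380% of cKO ESC, and 3.08% of parental day 3 cells and 10.4% of parental ESC. The genes with the largest positive differences, Cck, S100a4, Mgp, Grem1, Col1a2 and Bgn, had nearly all their cKO UMIs in few cells. Mgp, a matrix protein of cartilage and vessels, had 103 CPM in cKO day 3 cells and 12.9 CPM in cKO ESC, and 80.1 CPM in parental day 3 cells and 499.8 CPM in parental ESC. In cKO day 3 cells 2 cells held 50% of the Mgp UMIs. Without fibroblast-gene cells the cKO log2 ratio was 1.83 in place of 3.005 for Mgp and -3.66 in place of 1.75 for S100a4. Mgp and Col1a2 are among the fibroblast genes that define these cells, so the Mgp shift follows in part from the definition. S100a4 is not among them. Col1a2, a chain of type I collagen, had 2.91 CPM in cKO day 3 cells and 1.19 CPM in cKO ESC, and 3.12 CPM in parental day 3 cells and 50.3 CPM in parental ESC.

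The most negative differences belonged to Foxd1, Saa3, Ak4, Npl, Fgf8 and Crym. Foxd1 reached the same low level at day 3, 1.02 CPM in cKO and 1.04 CPM in parental cells, and differed in ESC, with 137 CPM in cKO and 20.7 CPM in parental cells. Ak4, a mitochondrial adenylate kinase, had 4.46 CPM in cKO day 3 cells and 57.6 CPM in cKO ESC, and 7.87 CPM in parental day 3 cells and 18 CPM in parental ESC. Fgf8 differed at day 3 instead, with 18.1 CPM in cKO day 3 cells and 1.55 CPM in cKO ESC, and 49.3 CPM in parental day 3 cells and 0.879 CPM in parental ESC, a difference of -2.27 (-2.78 to -1.76). The caudal genes did not share 1 pattern: Nkx1-2 differed by 0.38 (0.04 to 0.72) and T by 0.80 (0.46 to 1.15), both toward a larger step in cKO. Their levels were 36.9 and 34.4 CPM in cKO day 3 cells and 2.28 CPM each in cKO ESC, and 57.6 and 42.2 CPM in parental day 3 cells and 4.63 and 4.87 CPM in parental ESC. Cdx4 also had a larger log2 ratio in cKO, 3.55 against 1.88 in parental cells. Cdx1 and Cdx2 went the other way, by -1.36 (-1.51 to -1.22) and -1.52 (-1.81 to -1.23). Cdx2 had 8.81 CPM in cKO day 3 cells and 26.7 CPM in parental day 3 cells.

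**Figure D4:**
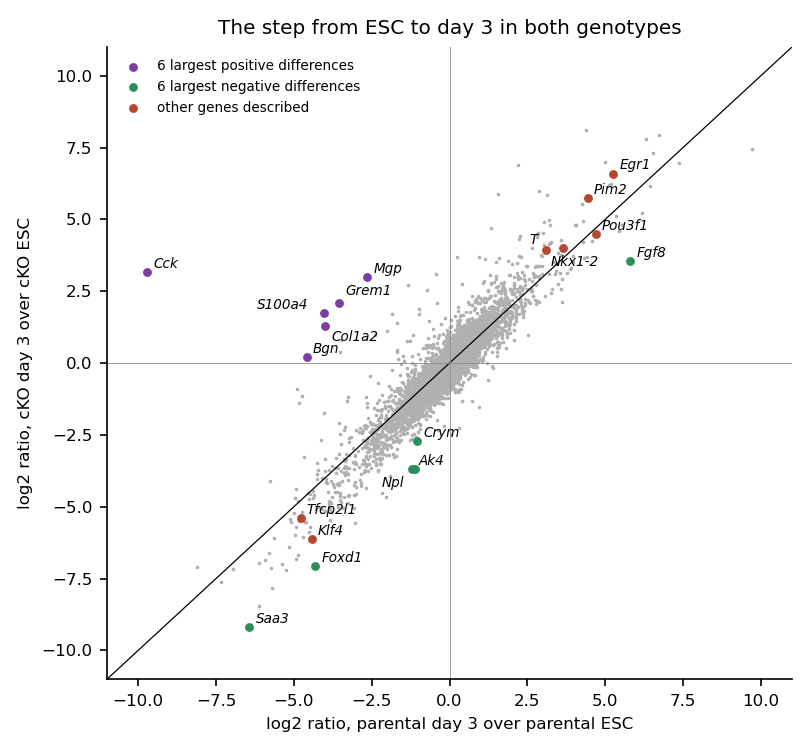
Log2 ratio of day 3 over ESC in Oct1 cKO cells (vertical axis) and in parental cells (horizontal axis), with 1 point per gene at 5 CPM or more in both genotypes plus the named genes, and a line at equal ratios. Most genes lie near the line (Spearman 0.89), and the purple points, whose cKO UMIs lay in few cells, lie above it.

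Octamers were looked for in the promoters of the genes that differed, as RefSeq windows of the GRCm38.p6 build of 250 bases before and 50 bases after the start. A gene counted when ATGCAAAT was present on either strand in any of its windows. Of genes with a window, 15 of 617 higher genes counted (2.43%, 1.37% to 3.98%), and 22 of 949 lower genes (2.32%, 1.46% to 3.49%). The same held for 78 of 5884 genes called neither (1.33%) and for 115 of 7450 genes compared (1.54%). By window, a different unit, the octamer was in 570 of all 32851 (1.74%). The intervals of the higher and lower genes include the share over all compared genes. They lie above the 1.33% of genes called neither, but overlap the interval of that share, 1.05% to 1.65%. No test was run, and promoter composition and level were not matched. Among the genes named by rule with a window, 148 of 214, the octamer was in 5: Pim2, Cdx4, Dll1, Plet1 and Sfrp2. The windows of 2 higher and 2 lower genes are shown, to place the motif against genes that moved in both directions. Zfp42, a naive zinc finger gene with 33.5 CPM at day 3 and 455 CPM in ESC, was chosen after its values were seen. Windows run 5′ to 3′ on the strand of the gene, with the octamer or its reverse complement ATTTGCAT in capitals: Pim2 at chrX:7878056-7878355 (+), Sfrp2 at chr3:83766071-83766370 (+), Zfp42 at chr8:43306960-43307259 (-) and Plet1 at chr9:50494275-50494574 (+).
Pim2: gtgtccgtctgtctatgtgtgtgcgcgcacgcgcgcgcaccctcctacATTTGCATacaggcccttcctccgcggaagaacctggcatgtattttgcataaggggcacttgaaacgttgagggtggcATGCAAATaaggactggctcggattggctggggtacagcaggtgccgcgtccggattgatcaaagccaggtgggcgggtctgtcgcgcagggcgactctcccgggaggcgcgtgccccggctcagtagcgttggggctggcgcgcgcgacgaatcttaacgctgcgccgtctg
Sfrp2: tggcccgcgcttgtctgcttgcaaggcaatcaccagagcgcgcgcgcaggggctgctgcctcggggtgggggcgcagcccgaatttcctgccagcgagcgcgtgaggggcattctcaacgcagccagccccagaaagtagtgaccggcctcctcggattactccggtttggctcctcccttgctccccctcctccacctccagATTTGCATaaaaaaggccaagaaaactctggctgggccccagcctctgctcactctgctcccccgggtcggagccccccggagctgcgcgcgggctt
Zfp42: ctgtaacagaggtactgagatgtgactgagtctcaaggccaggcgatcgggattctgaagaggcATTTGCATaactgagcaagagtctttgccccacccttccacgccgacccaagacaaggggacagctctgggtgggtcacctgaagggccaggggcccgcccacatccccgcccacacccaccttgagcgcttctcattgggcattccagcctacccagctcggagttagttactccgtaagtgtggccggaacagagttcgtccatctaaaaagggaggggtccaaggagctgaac
Plet1: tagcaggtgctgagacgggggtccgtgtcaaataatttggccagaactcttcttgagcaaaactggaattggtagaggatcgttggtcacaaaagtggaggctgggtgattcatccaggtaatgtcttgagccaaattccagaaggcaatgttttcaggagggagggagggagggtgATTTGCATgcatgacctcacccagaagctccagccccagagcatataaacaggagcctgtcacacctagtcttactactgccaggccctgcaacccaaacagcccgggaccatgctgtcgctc
Pim2 holds 2 octamers, the first of which begins 202 bases before the start, and in the others the match begins 47 bases before the start for Sfrp2, 186 for Zfp42 and 73 for Plet1. A match says only that the letters are present, and these data hold no measurement of binding.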

How the data were processed

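Per the file headers, the authors made the deposited UMI counts with Cell Ranger 3.1.0, and the submitters' processing notes name mm10; the values are whole-number counts per gene and cell barcode, not normalized. Kept cells had 1000 genes or more and a mitochondrial share of 10% or less. Scrublet (scanpy 1.11.5, Python 3.11.15) marked 30 of 7096 cells (0.423%), too few for a working caller, so doublets count as not treated. UMIs were summed per library and scaled to CPM, and log2 ratios were given exact conditional binomial 95% intervals. Each cell was thinned to 10000 UMIs for shares and list UMIs, with exact Clopper-Pearson intervals. The ratio code was tested on simulated data. With 1 library per group no test was run.

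Named were Pou2f1, the 14 highest and 14 lowest log2 ratios (1 CPM added for ranking) at 20 CPM or more and seen in at least 5% of cells, the 6 highest and 6 lowest differences from the parental step, and up to 4 members of each list. Genes named mt-, Rpl, Rps, Gm or Rik were left out of the ranking. The genes, the 59 lists and the comparisons were chosen with earlier results of these data known. Alternatives were TMM factors (edgeR 4.0.16, R 4.3.3), median-of-ratios factors, other cell and level filters, equal weight per cell, other totals, other thinning depths, and leaving out keratin-high or fibroblast-gene cells. Of 31053 gene IDs, 31011 matched the mouse annotation used for chromosomes.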

Additional observations from a re-analysis of the deposited data

Results flagged for a closer look

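For 6 genes the step was at least 2-fold up in cKO and at least 2-fold down in parental cells, and the differences between genotypes were not tested, since each group is 1 library. As cKO minus parental log2 ratio of day 3 over ESC, they were 5.79 for S100a4, 5.65 for Mgp, 4.02 for Myl9, 3.55 for Mxra8, 3.11 for Prnp and 3.07 for Tnfrsf12a. Mxra8, Prnp and Tnfrsf12a were chosen after their values were seen. S100a4, a calcium-binding protein of mesenchymal cells, had 9.46 CPM in cKO day 3 cells and 2.82 CPM in cKO ESC, and 6.0 CPM in parental day 3 cells and 98.8 CPM in parental ESC. Tnfrsf12a, the receptor of the cytokine TWEAK, had 22.2 CPM in cKO day 3 cells and 8.49 CPM in cKO ESC, and 18.3 CPM in parental day 3 cells and 58.8 CPM in parental ESC. Not every cKO ratio held at 2-fold: Myl9 was at 0.70 with equal weight per cell, Prnp at 0.88 with equal weight and 0.66 under stricter cell limits, and Tnfrsf12a at 0.41 under those limits. Under those limits Mgp was at -0.15 and S100a4 at -5.50. All 6 were higher in parental ESC than in cKO ESC, and their levels differed less between the genotypes at day 3 than in ESC. Fibroblast-gene cells, which Mgp helps to define, moved with them, at 0.380% of cKO ESC and 10.4% of parental ESC. No gene was called lower in cKO and higher in parental cells.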

How the results depend on the processing

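Counts followed the minimum level. The 826 higher and 1242 lower genes were 387 and 633 at 20 CPM, and 1449 and 2016 at 1 CPM, which changes how many genes are compared. The 302 more positive and 226 more negative genotype differences were 109 and 80 at 20 CPM, and 702 and 588 at 1 CPM. Without fibroblast-gene cells the more positive ones numbered 88, and under stricter cell limits (2000 genes or more, mitochondrial share 5% or less) the more negative ones numbered 493, the cause of which was not tested. The share of day 3 cells at or above the 5th percentile of ESC naive UMIs was 28.4% at 5000 UMIs and 11% at 20000 UMIs. TMM factors gave 959 higher and 1137 lower genes and shifted the median by 0.07.

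Of 1980 named gene values over 9 settings, 1966 kept their sign and 1913 their side of 2-fold, and 10 were reversed. Several settings could hardly change a sign, in genes or in list medians. TMM factors, median-of-ratios factors and a total without mitochondrial and ribosomal protein genes add the same constant, 0.07 or smaller, to every log2 ratio. Keeping called doublets returned only 15 cells. With the stricter cell limits the log2 ratio was -0.15 for Mgp, -5.50 for S100a4, -2.69 for Cck, -3.69 for Grem1 and -1.28 for Col1a2. Those limits also gave 4.25 for Fgf5, 3.22 for Dll1, 3.20 for Trh, 2.16 for Grhl2, 1.75 for Dusp4, -1.93 for Id4, -2.69 for Notum, -2.84 for Lefty2, -2.83 for Peg10, -3.85 for Id2, -4.12 for Bmp4 and -10.07 for Saa3, with no call lost among these genes. Other named genes fell under 2-fold there, among them Tdh at -0.999, Psat1 at 0.83, Sfrp1 at -0.83, Dusp5 at 0.44, Ddit4 at 0.51 and Klf6 at 0.94. Still others passed 2-fold only under those limits, such as Etv2 at 1.42 and Scd1 at 1.04. Equal weight per cell gave 4.89 for Cnn1, -6.36 for Foxd1 and -0.18 for Col1a2. H19 was at 1.46 without keratin-high cells, and without fibroblast-gene cells S100a4 was at -3.66, Cck at -1.08 and Grem1 at -2.81. Of 522 list medians 511 kept their sign, and none that stood past 2-fold changed sign. No paired analysis was possible because each group is 1 library, and no replicate could be left out.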

Other observations

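Other lists held single genes of large change. The apoptosis list had 3 of 10 compared genes higher at day 3 and 3 lower (over all genes, 8.73% and 13.1%). Bcl2 had 6.47 CPM at day 3 and 0.621 CPM in ESC, and Bcl2l1, another gene that prevents cell death, had 13.3 CPM at day 3 and 41.3 CPM in ESC. Among 13 imprinted genes compared, the zinc finger gene Plagl1 had 5.74 CPM at day 3 and 82.5 CPM in ESC, Peg10 had 27.7 CPM at day 3 and 129 CPM in ESC, and Snrpn had 358 CPM at day 3 and 111 CPM in ESC. Of 12 genes of defence against oxidants 4 were lower and none was higher, against 13.1% and 8.73% over all genes. The quinone reductase Nqo1 had 7.85 CPM at day 3 and 60.7 CPM in ESC. The mitochondrial dismutase Sod2 had 123 CPM at day 3 and 392 CPM in ESC. In serine and threonine metabolism, Phgdh, which starts serine synthesis, had 232 CPM at day 3 and 81.9 CPM in ESC, while Tdh, the threonine dehydrogenase used by mouse ESC, had 232 CPM at day 3 and 540 CPM in ESC. The Tdh log2 ratio of -1.22 was -0.999 under the stricter cell limits. Trh, the precursor of thyrotropin-releasing hormone, had 491 CPM at day 3 and 97.5 CPM in ESC.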
